A study of Rattus norvegicus with 15 samples.

Results

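A set of 10 genes of the Hippo pathway and its YAP output (Ajuba, Ccn1, Ccn2, Crim1, Amotl2, Ankrd1, Lats1, Lats2, Yap1 and Tead1) were followed across sorted rat hepatocytes of different DNA content. They were chosen by name, with earlier results of these data known. The probes whose gene name is one of them were read from every array, with Ccn1 and Ccn2 listed there under their older names Cyr61 and Ctgf. All 10 were on the array, out of 20524 named genes, on 15 probes, and 8 of the 10 were measured well enough to be tested. The hepatocytes came from female Wistar rats and were stained with Hoechst33342, a dye that binds DNA. They were sorted by flow cytometry into a 2c, a 4c and an 8c fraction, where 2c is the DNA content of a diploid cell before replication. Each of 5 independent experiments gave 1 array per fraction, n = 5 per fraction and 15 arrays in all, from rats aged 12, 14, 6, 5 and 6 weeks for experiments 1 to 5 in turn. The number of animals behind an experiment is not given in the sources used here, and DNA content alone does not separate a tetraploid cell from a diploid cell that has replicated.

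The Hippo pathway is a kinase cascade that restrains organ size in the liver. The kinases Mst1 and Mst2 (genes Stk4 and Stk3) activate Lats1 and Lats2, which phosphorylate the coactivator Yap and keep it out of the nucleus, where it would bind Tead factors and switch on genes such as Ccn1, Ccn2 and Ankrd1. In cultured human cells, failed cytokinesis, which leaves a cell tetraploid, activates Lats2 and lowers Yap activity, and most rat hepatocytes become polyploid through incomplete cytokinesis after weaning.

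The promoters of 7 of the 10 genes were in the RefSeq table (GRCr8 build), and Ankrd1, Lats2 and Tead1 were not. The 6-base Tead motif GGAATG, on either strand, was searched for in the 300 bases from 250 before to 50 after each start site. It was found in 5 of these 7 promoters, against 14.189% of 33469 promoters of the same length. In a wider list of Yap target genes, described below and sharing members with this set, it was in 5 of 15 promoters (33.3%). The genes were chosen as parts or targets of the pathway, so these shares are not a test. The 250 bases before the start site are shown for the 3 genes that were lower in 8c (Ajuba, Ccn1 and Crim1), for Ccn2, which held 3 motifs and was not detected, and for Amotl2, which held 1 motif and for which no difference passed. They are on the gene's own strand, 5′ to 3′, and the capitals mark the Tead motif.
Ajuba (chr15:32000043-32000292, minus strand): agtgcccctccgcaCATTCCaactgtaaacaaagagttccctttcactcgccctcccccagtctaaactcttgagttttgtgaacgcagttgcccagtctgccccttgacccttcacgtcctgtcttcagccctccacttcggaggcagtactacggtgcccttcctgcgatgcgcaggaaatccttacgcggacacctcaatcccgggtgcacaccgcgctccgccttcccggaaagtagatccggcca
Ccn1 (chr2:237225690-237225939, minus strand): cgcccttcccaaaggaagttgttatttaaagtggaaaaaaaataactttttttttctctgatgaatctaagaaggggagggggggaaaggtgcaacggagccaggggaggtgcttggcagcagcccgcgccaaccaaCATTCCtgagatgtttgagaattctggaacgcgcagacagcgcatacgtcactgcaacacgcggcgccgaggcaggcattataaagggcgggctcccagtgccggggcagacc
Crim1 (chr6:22622417-22622666, minus strand): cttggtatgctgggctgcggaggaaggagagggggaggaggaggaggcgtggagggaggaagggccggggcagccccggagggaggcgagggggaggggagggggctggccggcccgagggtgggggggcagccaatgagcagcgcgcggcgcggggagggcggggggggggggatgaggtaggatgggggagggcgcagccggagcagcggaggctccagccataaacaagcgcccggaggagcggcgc
Ccn2 (chr1:22624615-22624864, minus strand): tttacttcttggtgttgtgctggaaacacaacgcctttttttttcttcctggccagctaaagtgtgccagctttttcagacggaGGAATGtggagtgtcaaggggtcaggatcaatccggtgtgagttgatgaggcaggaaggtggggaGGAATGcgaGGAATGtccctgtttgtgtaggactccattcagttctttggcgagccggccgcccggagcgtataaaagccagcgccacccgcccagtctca
Amotl2 (chr8:112182376-112182625, plus strand): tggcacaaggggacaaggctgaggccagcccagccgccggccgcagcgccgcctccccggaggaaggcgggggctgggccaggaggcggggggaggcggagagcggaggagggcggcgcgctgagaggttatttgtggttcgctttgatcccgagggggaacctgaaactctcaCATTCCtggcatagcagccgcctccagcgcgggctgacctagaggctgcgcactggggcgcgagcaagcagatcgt
The motif began 236 bases before the start site in Ajuba, 113 before it in Ccn1, 76 before it in Amotl2 and 116 before it in Yap1, and in Ccn2 it began 166, 101 and 92 bases before it. The windows of Crim1 and Lats1 held none. The AP-1 motif TGANTCA, read the same on both strands, was in 0 of the 7 windows and in 7.329% of all promoters. The serum response motif named the CArG box was also in 0 of the 7, and in 1.637% of all promoters. With no match, neither overlapped a Tead motif in these windows, and a match describes the sequence and is not evidence of binding.

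Ajuba, Ccn1 and Crim1 were lower in 8c than in 2c hepatocytes, by 1.87-fold, 1.63-fold and 2.35-fold. The kinases Lats1 and Lats2, the coactivator Yap1, its partner Tead1 and the Yap-binding protein Amotl2 did not pass the test, and their estimates lay between -0.20 and 0.12 on the log2 scale. All levels are log2 intensities relative to the 75th percentile of the array, so that 0 is that percentile and a difference of 1 is a doubling of the signal relative to it. The threshold was an adjusted p of 0.05 in limma, with the experiment as a block and Benjamini-Hochberg adjustment over the 17400 tested features. In 8c against 2c, 3 of the 8 tested genes passed and all 3 were lower. Beside this, 1.52% of all tested features were called lower and 2.32% in either direction. The genes were chosen with earlier results of these data known, so this contrast is not a test of the set. Fewer cells of a type in a fraction and less RNA per cell cannot be told apart in these bulk samples, and the arrays were scaled, so RNA per cell was not measured.

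**Figure D1:**
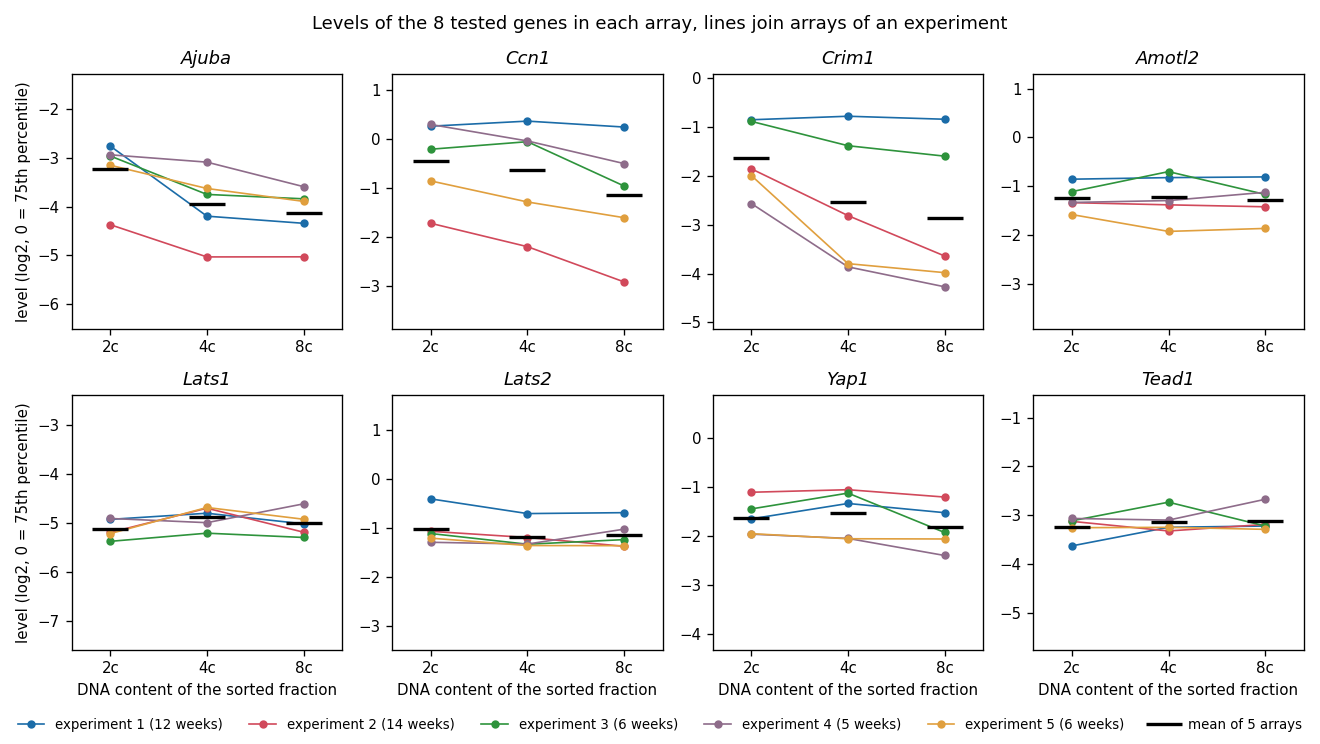
Level of each tested gene (y axis, log2) in the 2c, 4c and 8c fractions (x axis), with 1 colour per experiment. Lines join the arrays of an experiment, and black bars mark the mean of 5 arrays. A level of 0 is the array's 75th percentile over probes well above background on all arrays. Every panel spans the same width of levels around its own centre, so heights do not compare between panels. Ajuba is lower in 8c than in 2c in all 5 experiments, while the experiments themselves lie far apart for Ccn1 and Crim1.

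Ajuba encodes a LIM-domain adaptor protein that binds the Lats kinases and limits their activity towards Yap. Its probe lies at chr15:32627943-32628002 on the minus strand (rn4 build). Its levels in experiments 1 to 5 were -2.76, -4.37, -2.97, -2.94 and -3.15 in 2c cells, -4.20, -5.03, -3.75, -3.09 and -3.63 in 4c cells, and -4.34, -5.03, -3.84, -3.59 and -3.89 in 8c cells. The 2c array of experiment 2 was the low one of its group, and the other 2c arrays were all above the highest 8c array. The mean was -4.14 ± 0.57 in 8c and -3.24 ± 0.65 in 2c (SD, n = 5 each), a difference of -0.90 (SE 0.16, 95% interval -1.25 to -0.55, not adjusted for the number of features; limma adjusted p = 0.0160), lower in 5 of 5 experiments, as were 8.03% of all tested features. The call was lost when experiment 2, 3 or 5 (limma adjusted p = 0.0585, 0.0727 and 0.0891) or the 8c array of experiment 1 or 5 (0.0607 and 0.0538) was left out, and it remained in the other 15 of these 20 settings.

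Ccn1 encodes a secreted matricellular protein and is one of the standard reporters of Yap activity. Its probe lies at chr2:243824364-243824423 on the minus strand (rn4). The levels in experiments 1 to 5 were 0.26, -1.73, -0.21, 0.29 and -0.86 in 2c cells, 0.36, -2.21, -0.06, -0.04 and -1.29 in 4c cells, and 0.24, -2.93, -0.96, -0.51 and -1.61 in 8c cells. Experiment 2 was the lowest in every fraction, experiment 1 was the highest in 4c and 8c and second to experiment 4 in 2c, and the fractions overlapped widely. The mean was -1.15 ± 1.20 in 8c and -0.45 ± 0.85 in 2c, a difference of -0.70 (SE 0.15, 95% interval -1.03 to -0.37; limma adjusted p = 0.0386), lower in 5 of 5 experiments. In experiment 1 the difference was only -0.02, and in experiments 2 to 5 it was -1.20, -0.75, -0.80 and -0.75. The call remained in 4 of the 20 settings that leave out an experiment or an array, those without experiment 1, its 2c array, its 8c array or the 4c array of experiment 3, and was lost in the other 16, with adjusted p up to 0.169.

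Crim1 encodes a transmembrane protein with cysteine-rich repeats that bind bone morphogenetic proteins, and it appears in lists of Yap target genes. The probe that entered the fit lies at chr6:1140817-1140876 on the plus strand (rn4). The promoter shown above is on the minus strand in GRCr8, and why the strands differ between these builds was not tested. The levels in experiments 1 to 5 were -0.85, -1.86, -0.89, -2.57 and -1.997 in 2c cells, -0.78, -2.82, -1.39, -3.86 and -3.80 in 4c cells, and -0.84, -3.64, -1.60, -4.27 and -3.98 in 8c cells. The 3 fractions of experiment 1 were within 0.1 of each other, and in the other experiments 2c was the highest and 8c the lowest. The mean was -2.87 ± 1.54 in 8c and -1.63 ± 0.74 in 2c, a difference of -1.23 (SE 0.27, 95% interval -1.83 to -0.64; limma adjusted p = 0.0443), lower in 4 of 5 experiments. A second Crim1 probe was well above background on 2 of 5 arrays in 8c and 3 of 5 in 2c, so it gives no exact size for the difference. With the mean of the probes in place of the brightest one, Crim1 did not pass (limma adjusted p = 0.0867). The call remained in 3 of the 20 leave-out settings, those without experiment 1, its 2c array or its 8c array, and was lost in the other 17, with adjusted p up to 0.178.

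**Figure D2:**
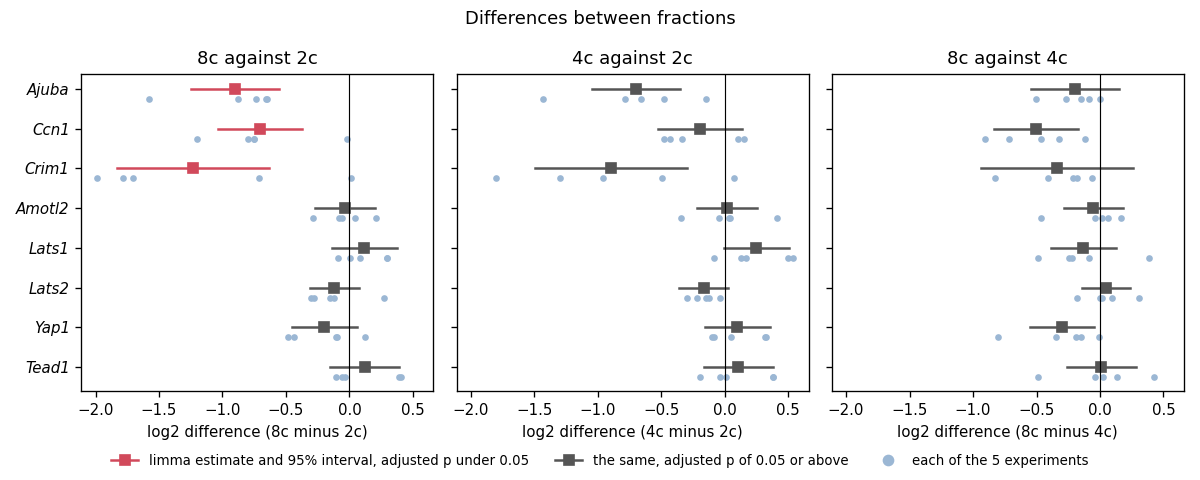
Log2 difference between fractions (x axis) for each tested gene (y axis) in the 3 comparisons, with the limma estimate as a square, its 95% interval as a line and each experiment as a small point. Ajuba, Ccn1 and Crim1 in 8c against 2c are the estimates past an adjusted p of 0.05, at -0.90, -0.70 and -1.23.

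Lats1 and Lats2 are the kinases that phosphorylate Yap. Lats2 ranged over -1.37 to -0.68 in 8c and -1.29 to -0.40 in 2c, with a difference of -0.12 (95% interval -0.31 to 0.07; limma adjusted p = 0.579). Lats1 ranged over -5.30 to -4.61 in 8c and -5.38 to -4.91 in 2c, with a difference of 0.12 (-0.14 to 0.37; limma adjusted p = 0.697). Both intervals leave out a change of 1.5-fold in either direction. A second Lats1 probe, well above background on all 15 arrays, gave -0.27 where the tested probe gave 0.12, so the probes of Lats1 disagree in sign.

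Amotl2 encodes an angiomotin-like protein that binds Yap and tethers it at cell junctions, and it is itself a Yap target. It ranged over -1.86 to -0.81 in 8c and -1.58 to -0.85 in 2c, with a difference of -0.03 (95% interval -0.27 to 0.20; limma adjusted p = 0.920). Its estimate was above 0 under 3 other scalings of the arrays, so it has no settled sign. Yap1 itself ranged over -2.40 to -1.21 in 8c and -1.96 to -1.11 in 2c, with a difference of -0.20 (-0.46 to 0.06; limma adjusted p = 0.464), and its second probe gave -0.24. Tead1, which encodes a DNA-binding partner of Yap, ranged over -3.29 to -2.67 in 8c and -3.63 to -3.06 in 2c, with a difference of 0.12 (-0.16 to 0.39; limma adjusted p = 0.712). The fractions overlapped for all 5 of these genes, as they did for the 3 that passed. Over all tested features, 1.36% had 8c and 2c groups that did not overlap.

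Ccn2 and Ankrd1 are the remaining standard Yap reporters, a matricellular protein related to Ccn1 and an ankyrin repeat protein. The Ccn2 probe was well above background on 0 of the 15 arrays, with measured means of -7.71 in 2c, -8.28 in 4c and -8.36 in 8c. The Ankrd1 probe was well above background on 1 array, the 8c array of experiment 5 at -5.92, and lay between -8.98 and -7.69 on the other 14. The lowest probe well above background was between -6.79 and -5.49 across the arrays. Apart from that 1 Ankrd1 value, the values of both probes are thus bounds, and no difference is given for either gene.

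In 4c against 2c, 0 of the 8 genes passed in limma, beside 1.13% of all tested features, and 2 of the 8 (Ajuba and Crim1) had an unadjusted p under 0.05, beside 15.9%. Ajuba had a mean of -3.94 ± 0.73 in 4c and a difference of -0.70 from 2c (SE 0.16; limma adjusted p = 0.0685), lower in 5 of 5 experiments. Without the 2c array of experiment 4 it passed, at an adjusted p of 0.0325. Crim1 had a mean of -2.53 ± 1.40 in 4c and differed by -0.90 (SE 0.27; limma adjusted p = 0.150), while Ccn1 had a mean of -0.65 ± 1.07 in 4c and differed by -0.20 (SE 0.15; limma adjusted p = 0.555). Lats2 was lower in 4c in 5 of 5 experiments by a mean of -0.17, with limma adjusted p = 0.382. Of all tested features, 8.60% were lower in 4c in 5 of 5 experiments.

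In 8c against 4c, 0 of the 8 passed in limma, beside 0.621% of all tested features, and 2 of the 8 (Ccn1 and Yap1) had an unadjusted p under 0.05, beside 7.72%. Ccn1, Crim1 and Yap1 were lower in 8c in 5 of 5 experiments, as were 4.61% of all tested features. The differences were -0.51 for Ccn1 (SE 0.15; limma adjusted p = 0.356), -0.34 for Crim1 (SE 0.27; limma adjusted p = 0.763) and -0.30 for Yap1 (SE 0.11; limma adjusted p = 0.605). Ajuba differed by -0.20 (SE 0.16; limma adjusted p = 0.757). The 3 comparisons share arrays in pairs, so they are not independent. Set side by side, the estimates of Ajuba were larger in 4c against 2c than in 8c against 4c, and those of Ccn1 were the reverse, a contrast that was not tested.

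More of the variance lay between the 5 experiments than between the 3 fractions, in shares not adjusted for these numbers of groups. For each of the 8 genes, between 46.7% and 87.9% of the variance over the 15 arrays lay between experiments, where the median over all tested features was 54.4%. The share between fractions was 30.6% for Ajuba, 17.2% for Crim1 and 9.05% for Ccn1, with a median of 9.43% over all features. The mean of Ccn1 over the 3 fractions of an experiment was 0.29 in experiment 1 and -2.29 in experiment 2, a wider gap than any between fractions. Crim1 had its highest experiment mean, -0.83, in experiment 1 and its lowest, -3.57, in experiment 4.

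Experiments 1 and 2 used rats of 12 and 14 weeks and experiments 3 to 5 rats of 5 and 6 weeks. The difference of 8c minus 2c did not depend detectably on this age class for any of the 8 genes (limma interaction, lowest adjusted p = 0.953), and 0 of all 17400 features passed, with 4.64% at an unadjusted p under 0.05. Ajuba differed by a mean of -1.12 in the older experiments and -0.76 in the younger ones. The interval of this gap ran from -1.03 to 0.31, which leaves room for a sizeable dependence on age. Slide 1 held experiments 1 and 2 with the 2c and 4c arrays of experiment 3, so slide and age can hardly be told apart.

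Within slide 1 the difference of 8c minus 2c was -1.07 for Ajuba, -0.55 for Ccn1 and -0.90 for Crim1. Within slide 2 it was -0.70 for Ajuba, -0.78 for Ccn1 and -1.84 for Crim1. None of the 3 passed in limma within either slide, and 0 of all tested features did. Slide 1 held both 8c and 2c arrays for experiments 1 and 2 only, and slide 2 for experiments 4 and 5 only. With so few arrays, a lack of calls says little. All 9 measured markers of pancreatic acinar cells were well above background on 6 arrays, namely 2c and 8c of experiment 1, all 3 of experiment 2 and 8c of experiment 3, with summed signals of 12.9 or more. The 4c array of experiment 1 had a sum of 7.45 with 2 of the 9 markers well above background, and on the other 8 arrays the sum was 0.126 to 0.277. Without the 6 arrays, and also without that 4c array (a setting chosen after seeing the data), the differences of 8c minus 2c were -0.77 for Ajuba, -0.69 for Ccn1 and -1.67 for Crim1, none past the threshold, with 0 of all tested features called. These settings keep 8c arrays of experiments 4 and 5 only, so here too a lack of calls says little.

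Markers of other liver cells moved with the fractions as well. The summed linear signal of 11 Kupffer cell markers, in units of the 75th percentile, ranged over 0.129 to 0.549 in 8c and 0.750 to 14.6 in 2c. Between 2 and 6 of them per array were well above background in 8c, against 7 to 9 in 2c. For 13 stellate cell markers the sum ranged over 0.257 to 0.914 in 8c (median 0.285) and was 1.23 or more in 2c (median 2.73), with 3 to 6 markers well above background per array in 8c and 7 to 10 in 2c. For 9 sinusoidal endothelial markers on the array it ranged over 0.132 to 0.319 in 8c and 0.390 to 2.03 in 2c, with 2 to 7 markers well above background in 8c and 6 to 9 in 2c. The 7 hepatocyte markers summed to 532 to 821 in 8c and 539 to 896 in 2c, with 0 of 7 called. In 4c the Kupffer sum ranged over 0.163 to 0.614, the stellate sum over 0.286 to 0.821 and the endothelial sum over 0.137 to 0.353, each overlapping its range in 8c. Of the 7 bile duct markers, Krt19, Krt7, Spp1 and Cftr were well above background on 0 arrays, and Epcam and Sox9 on all 15. Epcam had a mean of -4.44 in 8c and -3.65 in 2c and passed as lower in 8c against 2c and in 4c against 2c, while Sox9, with means of -2.21 in 8c and -2.26 in 2c, did not pass. Lymphocyte markers summed to 0.126 to 0.226 in 8c and 0.127 to 0.193 in 2c. Mesothelial markers summed to 0.0338 to 0.0808 in 8c and 0.0347 to 0.0652 in 2c. In each of these lists 1 marker was tested, and it was not called. The stellate cell genes Col1a1 and Dcn were well above background on 0 arrays. Of the tested markers, 6 of 7 Kupffer, 6 of 8 stellate and 4 of 8 endothelial ones were called lower in 8c against 2c, and 0 higher, beside 1.52% of all tested features lower. Not all detected markers fell. The stellate marker Pdgfrb, well above background on all 15 arrays, had means of -2.54 in 8c and -2.77 in 2c. The endothelial marker Cdh5, also on all 15, had -3.84 and -3.62, and neither was called.

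The fall of the summed marker signals and that of the 3 genes can be set side by side in each experiment. In experiment 1 the log2 ratio of 8c over 2c was -6.33 for the Kupffer sum, -5.48 for the stellate sum and -3.75 for the endothelial sum, the lowest of the 5 experiments for each. In the same experiment Ajuba differed by -1.58, its largest fall, whereas Ccn1 differed by -0.02 and Crim1 by 0.01. Experiment 5 had the next lowest sums, at -4.73 for Kupffer, -3.27 for stellate and -2.30 for endothelial markers, and there Ajuba differed by -0.74, Ccn1 by -0.75 and Crim1 by -1.99, its largest fall. In experiment 2 the Kupffer sum differed by -3.07, the stellate sum by -2.11 and the endothelial sum by -0.86, while Ajuba differed by -0.66, Ccn1 by -1.20 and Crim1 by -1.78. In experiments 3 and 4 the Kupffer ratio was -2.81 and -1.31 and the stellate ratio -2.35 and -2.32, beside -0.71 and -1.70 for Crim1, -0.75 and -0.80 for Ccn1 and -0.88 and -0.65 for Ajuba. The part of other cells in the fall of the 3 genes was not tested.

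**Figure D3:**
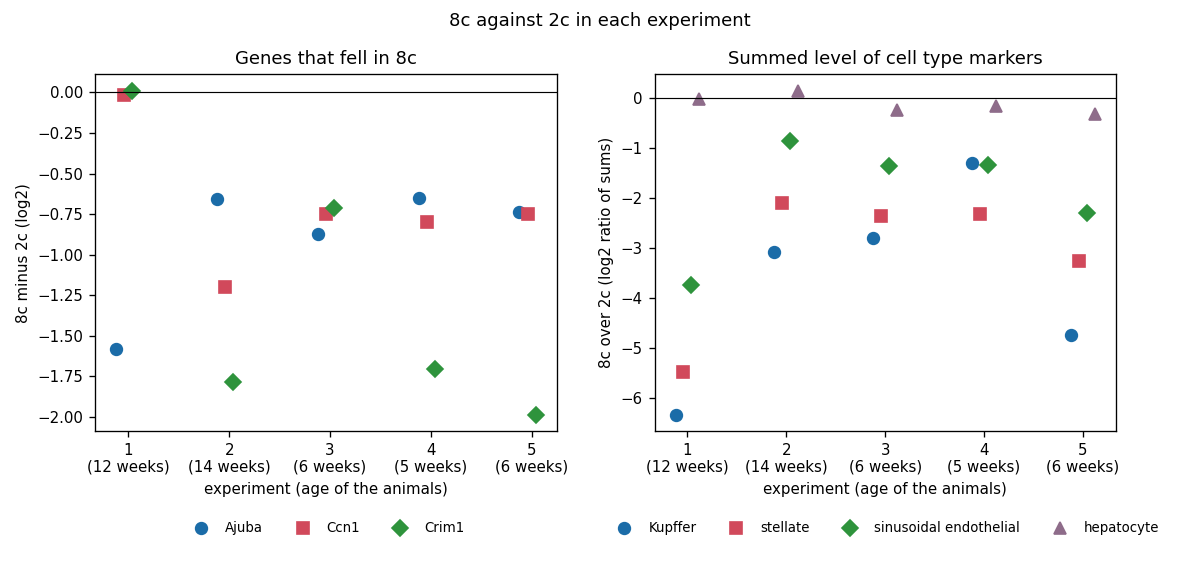
Left, 8c minus 2c (y axis, log2) of Ajuba, Ccn1 and Crim1 in each experiment (x axis, with the age of the animals), and right, the log2 ratio of 8c over 2c for the summed signal of cell type markers. Experiment 1 has the lowest Kupffer, stellate and endothelial ratios and the lowest Ajuba point, while Ccn1 and Crim1 lie at -0.02 and 0.01.

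The rest of the pathway was followed in 4 lists of components: the core kinases and their scaffolds, the upstream regulators, the LIM-domain inhibitors of Lats, and Yap with its partners. Of 32 components listed, 30 were on the array and 25 were tested. Ajuba passed in 8c against 2c and no other component passed in any of the 3 comparisons in limma. At an unadjusted p under 0.05 the count was 1 in 8c against 2c (Ajuba), 2 in 4c against 2c (Ajuba and Amot) and 2 in 8c against 4c (Map4k4 and Yap1), beside 14.8%, 15.9% and 7.72% of all tested features. The other 24 components had differences of 8c minus 2c between -0.20 and 0.55, and the lowest adjusted p among them was 0.410.

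Among the core genes, Stk3 differed by 0.06 in 8c against 2c, Stk4 by 0.07, the scaffold Sav1 by -0.13 and the Lats cofactor Mob1a by -0.13. The 7 core genes had a median of -0.12, where all tested features had a median of -0.02. Limd1, the LIM-domain relative of Ajuba, differed by 0.02 (limma adjusted p = 0.957). Among the effectors, Wwtr1, which encodes the Yap paralogue Taz, differed by -0.05, Tead3 by 0.01 and the Tead cofactor Vgll4 by 0.02, and Tead4 was well above background on 0 arrays. The highest estimate among the components belonged to the kinase Map4k4, at 0.55 (95% interval -0.09 to 1.18; limma adjusted p = 0.410).

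A wider list of 22 Yap target genes had 21 on the array and 15 tested. In 8c against 2c, 3 of the 15 were lower (Ccn1, Crim1 and Ccdc80) and 0 were higher, beside 1.52% of all tested features lower. Ccn1 and Crim1 are members already counted above, so Ccdc80 is the call that this list adds. Amotl2 and Lats2 also stand in both lists, which are thus not separate sets. The median of the 15 was -0.23, against -0.02 for all tested features. Ccdc80 encodes a secreted protein of the extracellular matrix. Its levels in experiments 1 to 5 were -6.67, -6.60, -4.20, -5.55 and -6.99 in 8c cells, and -0.59, -4.23, -1.91, -3.36 and -2.83 in 2c cells, so the groups overlapped by 1 array on each side. It differed by -3.42 in 8c against 2c (SE 0.52; limma adjusted p = 0.0083) and by -3.13 in 4c against 2c (SE 0.52; limma adjusted p = 0.0339), with the probe well above background on 5 of 5 arrays in 2c, 3 of 5 in 4c and 2 of 5 in 8c. The sizes and errors of these differences thus rest in part on arrays at background, and normexp background correction gave -1.38 in 8c against 2c, which did not pass (limma adjusted p = 0.0523). Without experiment 5 the adjusted p in 8c against 2c was 0.0789, and the call in 4c against 2c was lost in 12 of the 20 leave-out settings, with adjusted p up to 0.201. The lowest 8c minus 2c value of Ccdc80 was in experiment 1, as for Ajuba and the Kupffer, stellate and endothelial sums. The part of other cells in the fall of Ccdc80 was not tested.

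Other targets of the list did not pass. Tgfb2, a growth factor of the transforming growth factor family, differed by -0.74 (limma adjusted p = 0.143), and Asap1 by -0.42 (limma adjusted p = 0.103). Igfbp3, a carrier of insulin-like growth factors, differed by -0.23 (limma adjusted p = 0.668), Gadd45a by -0.04 and the ectonucleotidase Nt5e by 0.01. Of the 6 members of the Ccn family, Ccn1 was the one tested, and the other 5 were well above background on 0 arrays. Ccn1 is also an immediate early gene. Of the 11 tested genes of an immediate early list, 0 passed in 8c against 2c in limma, beside 2.32% of all tested features, and 1 (Ier2) had an unadjusted p under 0.05, beside 14.8%. In 4c against 2c 0 passed and 4 of the 11 (Fos, Ier2, Ier3 and Junb) had an unadjusted p under 0.05, beside 15.9%. All 4 were higher in 4c. In 8c against 4c 0 passed and 1 (Ier3, at -0.51) had an unadjusted p under 0.05, beside 7.72%. The median of the 11 in 8c against 2c was 0.06, with Fos at 0.28, Jun at 0.19 and Atf3 at -0.04. It was 0.24 in 4c against 2c and -0.15 in 8c against 4c, beside -0.03 and 0.005 for all tested features.

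**Figure D4:**
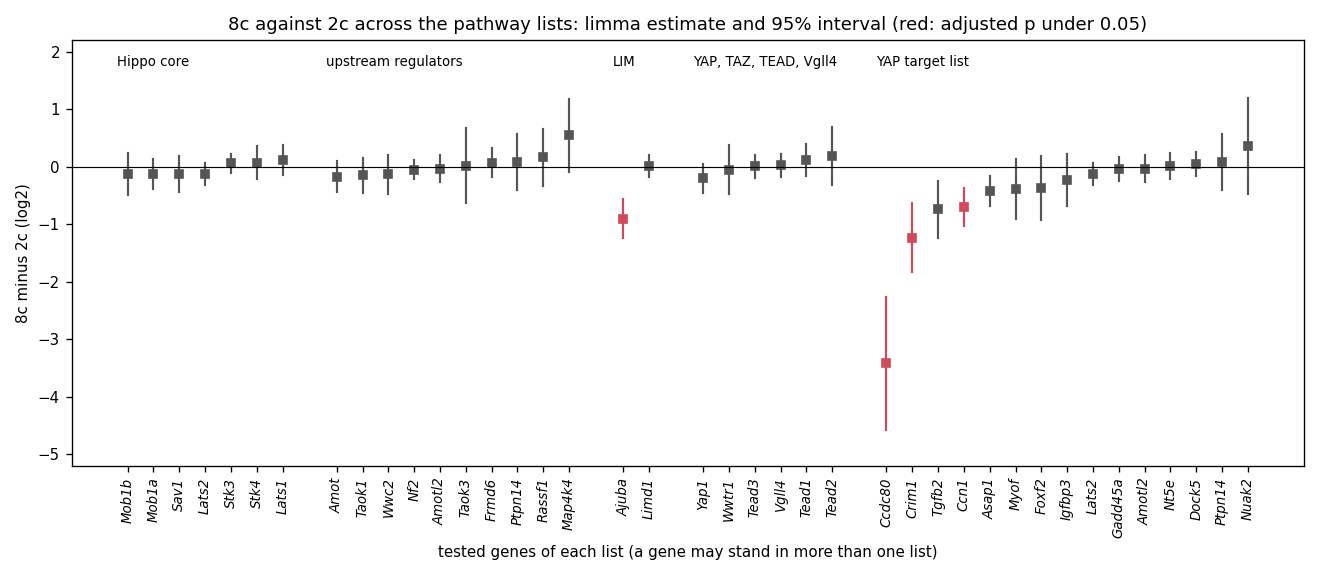
Estimate of 8c minus 2c (y axis, log2) with its 95% interval for the tested genes of the component and target lists (x axis), red where the adjusted p is under 0.05 and LIM for the LIM-domain inhibitors of Lats. The components other than Ajuba lie between -0.20 and 0.55, and Ccdc80, Crim1 and Ccn1 are the target genes past the threshold.

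Genes whose level followed each member most closely were found by Pearson correlation over the 15 arrays after the mean of each experiment was subtracted, among 10908 genes with a symbol. Arrays of an experiment were taken as sharing an isolation, and these values are descriptions of the arrays. The genes named had the highest r of 10908 over 15 arrays, so a high r follows in part from this choice. Their differences between fractions follow from it too and are not a separate result. Ajuba was followed most closely by Emp3 (r = 0.969), a membrane protein gene, and by 6430548M08Rikl (r = 0.967). Emp3 differed by -1.46 in 8c against 2c (limma adjusted p = 0.0303). Ccn1 was followed by Hmgcs1 (r = 0.958), an enzyme of cholesterol synthesis, which differed by -0.42 (limma adjusted p = 0.0474), and by Rogdi (r = 0.948). Crim1 was followed by the crystallin gene Crygs (r = 0.927) and by Axin2 (r = 0.908), a target and inhibitor of Wnt signalling, which differed by -0.95 (limma adjusted p = 0.0733).

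The members that did not pass were searched in the same way, with the same limit. Amotl2 was followed by Rab8b (r = 0.936), Lats1 by Mta3 (r = 0.896), Lats2 by Garre1 (r = 0.964), Yap1 by C5 (r = 0.934) and Tead1 by Rapgef4 (r = 0.893). Among the members themselves the closest pair was Ccn1 and Crim1 (r = 0.836), followed by Ccn1 and Yap1 (r = 0.719). Ajuba correlated with Ccn1 at 0.484 and with Yap1 at 0.07 over the same 15 arrays.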

How the data were processed

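Gene expression was measured on 15 one-colour Cy3 arrays. The deposited files give the processed signal, which is the authors' background-subtracted and detrended intensity, from Agilent Feature Extraction 11.5.1.1 per the file headers (version 10.7.3.1 per the submitters' processing notes), with no scaling between arrays. Control and outlier-marked spots were left out, spots of a probe were averaged, and no spot was saturated. Log2 signals were scaled to each array's 75th percentile over 16194 probes well above background on all arrays. Features flagged as well above background by the software on 5 or more of the 15 arrays were tested, with the brightest probe per gene, in limma 3.58.1 (R 4.3.3), two-sided, on all arrays. Per the series' design text the experiments were independent, and the fractions of 1 experiment were taken as sharing an isolation. Deviations of arrays of the same experiment correlated at a median r of 0.578 (0.04 to 0.787, 15 pairs), against -0.165 between experiments, so experiment was a block. The number of arrays limits the precision.

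Probes were named through accession (21109), symbol (6684), synonym (424) or the name in the file (17381). Probe positions are rn4, per the file headers, and no rn4 annotation was used here, so exons and introns are not named. The members, gene lists and tests were chosen with earlier results of these data known. The text names the 10 members, the genes of the pathway lists that passed and up to 3 bright ones of each list, and up to 2 genes most like each tested member. Other named genes were chosen after their values were seen. Alternatives covered scaling, background correction, the filter on dim probes, the probe rule, the deposited value table (equal to the mean processed signal within 1% for 99.257% of values), the block, the slide and left-out arrays.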

Additional observations from a re-analysis of the deposited data

Results flagged for a closer look

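Among 45 groups of 5 arrays examined (each member probe in each fraction), 4 held an array whose gap to its neighbour exceeded 0.71 of the group's range, the critical value of Dixon's test for 5 samples, and chance gives about 1 in 20. Ajuba was low on the 2c array of experiment 2, at -4.37, with the nearest 2c array at -3.15. Lats2 was high in experiment 1, at -0.70 on the 4c array (nearest -1.19) and at -0.40 on the 2c array (nearest -1.06). Tead1 was high on the 8c array of experiment 4, at -2.67, with the nearest 8c array at -3.19. The probes were well above background on all 15 arrays.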

How the results depend on the processing

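The falls of Ajuba, Ccn1 and Crim1 in 8c against 2c kept their direction in all 34 alternatives, with ranges of -1.07 to -0.49, -0.88 to -0.55 and -1.84 to -0.71 and adjusted p of 0.0108 to 0.775, 0.0189 to 0.999 and 0.0104 to 0.999. The smallest of these came with normexp. Their calls depended on the processing. Crim1 was lost with quantile normalization (adjusted p = 0.0548), the median (0.0517) and the mean of a gene's probes (0.0867), and Ajuba with normexp (0.0516), which left 2 calls each. The 3 calls became 1 (Ajuba) with the 75th percentile over all probes. They became 0 without a filter on dim probes, where more features are tested, and 0 with no replicate block, with the slide as the block, within slide 1, within slide 2 and without the acinar arrays, whether 6 or, as a setting chosen after seeing the data, 7 of them. With 1 experiment or array left out they ranged from 0 to 3. In 4c against 2c the count ranged from 0 to 1 with arrays left out, and in 8c against 4c it was 0 in all 34 alternatives. The age interaction called 0 members with age as a number and with quantile normalization. Calls over all features in 8c against 2c were 404, and were 184 with normexp, 223 and 207 with a stricter or no filter, 38 with no replicate block and 91 with the slide as block. In 4c against 2c they were 196, and 113 with quantile normalization, 53 with normexp, 126 and 0 with a stricter or no filter, 3 with no replicate block and 5 with the slide. In 8c against 4c they were 108, and 65 with normexp, 40 with the stricter filter, 0 with no replicate block and 41 with the slide. Within a slide, or without the acinar arrays, where few arrays remain, these counts were 0 or 1. With 1 experiment or array left out they ranged from 102 (without experiment 5) to 534 in 8c against 2c, from 3 (without experiment 5) to 538 (without 2c of experiment 4) in 4c against 2c, with 5 without 2c of experiment 5, and from 51 (without experiment 1) to 139 in 8c against 4c. Higher against lower calls in 8c against 2c were 140 to 264, and became 176 to 201 with quantile normalization, 186 to 210 with the median and 227 to 191 with the 75th percentile over all probes. Normexp moved the median of all features to -0.11. Differences that never passed changed sign in some settings. Amotl2 in 8c against 2c became 4.52e-06 with quantile normalization, 0.0069 with the median, 0.044 with the 75th percentile over all probes, 0.050 with the slide as block and within slide 1, and 0.056 without the acinar arrays. Lats1 became -0.12 with normexp, -0.075 with the mean of its probes and -0.067 within slide 1. Lats2 became 0.057 within slide 2 and 0.036 without the acinar arrays, Yap1 0.037 within slide 1 and Tead1 -0.014 with normexp. In 4c against 2c normexp gave -0.0061 for Amotl2, -0.048 for Lats1 and -0.022 for Tead1, and slide 2 gave -0.15 for Amotl2, -0.095 for Yap1 and -0.013 for Tead1. In 8c against 4c Amotl2 became 0.032 with the slide as block, 0.11 within slide 2 and 0.021 without the acinar arrays, Lats1 0.072 and 0.082 in these last settings, Lats2 -0.079 within slide 1 and Tead1 -0.0019 with the slide as block. With 1 experiment or array left out, Amotl2 ranged from -0.095 to 0.042 in 8c against 2c, -0.082 to 0.11 in 4c against 2c and -0.11 to 0.051 in 8c against 4c, where Lats2 ranged from -0.034 to 0.10, Tead1 from -0.092 to 0.14 and Ccdc80 from -0.54 to 0.11. The causes were not tested. Probes not well above background have only a bound, which limits Ccn2 and Ankrd1, and in part Ccdc80 and the second Crim1 probe.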
